A study of Rattus norvegicus with 9 samples.

Results

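Immediate early transcription factors are described here in gastric lymphatic vessels of stressed rats through 10 genes chosen by name: Fos, Fosb, Fosl2, Jun, Junb, Jund, Egr1, Egr2, Nr4a1 and Atf3. They are 10 of the 18964 genes in the count table, and all 10 passed the filter on low counts that left 14643 genes for testing. The rule names genes and has no threshold on measured values. On Rnor_6.0, the build of the counts, Fosl2 (gene ID 25446) lies on chromosome 6 from 25598936 to 25616995, Fos (314322) on the same chromosome from 109300433 to 109303299, and Egr2 (114090) on chromosome 20 from 22450246 to 22461018.

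The study asks how an herbal decoction, Banxia Xiexin decoction (BXD), acts on gastric lymphatic vessels of rats with stress ulcers. Wild-type male Sprague-Dawley rats gave 3 groups with 3 poly(A) RNA-seq libraries each. Control rats were fasted for 12 h, were not stressed and were given distilled water by gavage at 10 ml per kg, while their treatment label reads as a blank. Model rats had the same fast, then 4 h of immersion in 22 °C water to a depth of 15 cm, and 30 min later a gavage that the protocol gives as distilled water and the treatment label as saline. BXD rats had the same fast and immersion, and their gavage at that time held the decoction at the same volume per kg. All groups shared the fast and the handling of gavage, and the sources used here do not give the time from gavage to tissue collection. Each group had 6 rats and the labels do not tie a library to a rat or say whether animals were pooled, so p-values measure only the spread between these libraries, which may in part be technical.

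The proteins of these genes are the nuclear end of fast signalling. Fos and Jun family proteins pair through leucine zippers to form AP-1, the Egr proteins are zinc-finger factors that bind GC-rich sites, Nr4a1 is an orphan nuclear receptor, and Atf3 is a stress-induced member of the CREB/ATF family that can pair with Jun proteins. Growth factors, stretch, calcium entry and stress kinases can switch these genes on within minutes, through MAP kinases that act on SRF with its Elk partners and on CREB, and most of the transcripts are short-lived. In smooth muscle and endothelium they are known as early markers of mechanical and chemical stimulation.

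The promoter stretches below show the DNA elements through which such signals are known to act, and 3 of the 4 hold at least 1 of them. Promoter sequences of RefSeq (build GRCr8, not the build of the counts) were found for 7 members, namely Fosb, Fosl2, Junb, Jund, Egr1, Egr2 and Nr4a1, and the 250 bases before each annotated start were searched on both strands. Each line gives 110 bases, from 150 to 41 bases before the start, read 5′ to 3′ on the gene's strand. Egr1 lies on the plus strand at chr18:26736928-26737037, Egr2 on the minus strand at chr20:21054482-21054591, Nr4a1 on the plus strand at chr7:134259988-134260097 and Fosl2 on the minus strand at chr6:30039310-30039419. Capitals mark CArG boxes, the SRF-binding element, and the cyclic AMP response element (CRE) core TGACG or its reverse complement CGTCA.
Egr1: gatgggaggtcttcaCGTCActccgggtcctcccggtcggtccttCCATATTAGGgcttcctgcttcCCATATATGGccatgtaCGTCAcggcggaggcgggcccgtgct
Egr2: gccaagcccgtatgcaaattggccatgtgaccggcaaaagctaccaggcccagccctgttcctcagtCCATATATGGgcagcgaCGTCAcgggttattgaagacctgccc
Nr4a1: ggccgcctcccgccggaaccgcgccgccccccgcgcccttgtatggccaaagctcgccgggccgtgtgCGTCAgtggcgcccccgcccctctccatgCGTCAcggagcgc
Fosl2: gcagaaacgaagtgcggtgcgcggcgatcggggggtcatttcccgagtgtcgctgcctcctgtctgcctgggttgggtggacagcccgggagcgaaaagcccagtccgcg
Egr1 held 2 CArG boxes and Egr2 held 1, whereas 1.5% of the 33469 promoters in the RefSeq table held at least 1 in a window of the same length. The CRE core was present in 5 of the 7 members, Junb, Jund, Egr1, Egr2 and Nr4a1, against 18.2% of all promoters. The full palindrome TGACGTCA, which contains the core on both strands, was present in Jund and in 1.59% of all promoters. The AP-1 site TGANTCA was found in 0 of the 7 and in 6.34% of all promoters. Fosl2, the only member called below in both comparisons with control when all libraries were used, had none of these letters in its window. A match or its absence in such a window is a description of letters only.

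The libraries held between 12313823 and 13455701 estimated counts, and the lowest member count in any library was 55 (Egr2 in model replicate 2). Levels are given as CPM, counts scaled to a common library size that is adjusted for composition by trimmed means (TMM). Lymphatic endothelial markers were detected in every library, their 8-gene sum lying between 806 and 1760 CPM, with Stab2 near 0 in most libraries. Mmrn1 was the largest part of that sum, which held markers with opposite courses. Prox1 was at 68.1 to 100 CPM in control, 13.9 to 30.4 in model and 32.8 to 73.8 in BXD libraries. Lyve1 was at 85.5 to 91.4, 196 to 304 and 234 to 286. Gastric mucosa markers, 7 of 8 listed genes in the table, summed to between 0.501 and 3.27 CPM. Markers of other cell types were also present, and whether these cells belong to the vessel wall was not tested. Smooth muscle markers summed to 4080 to 6336 CPM in control, 1892 to 3450 in model and 5733 to 8912 in BXD libraries. Adipocyte markers summed to 4407 to 4934, 11270 to 19470 and 7687 to 11500 in the same order. Striated muscle markers summed to 34.0 to 43.7 CPM in control and 32.9 to 405 in model libraries, and to 5965, 68.9 and 3632 in BXD replicates 1, 2 and 3. In these bulk samples, fewer cells of a type and less RNA per cell cannot be told apart.

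One library stood apart in the immediate early genes. In BXD replicate 1 all 10 members had their highest level of the 9 libraries, where 12.8% of all genes tested did, and 5 of the 10 (Fosb, Fosl2, Junb, Nr4a1 and Atf3) were over 2 times the next highest library, where 0.956% of genes were. The median ratio of BXD replicate 1 to the mean of the other two BXD libraries was 3.52 over the members and 0.999 over all genes tested. It ranged from 2.27 for Jund to 10.8 for Fosb, with Nr4a1 at 9.26 and Fos at 6.03. BXD replicate 3 lay at the other end, with the lowest level of the 9 libraries for 6 members (Fos, Fosb, Jun, Jund, Egr2 and Nr4a1). The share of all genes that were lowest in that library was not counted. BXD against control is therefore also given without BXD replicate 1 for the members and the gene lists, and BXD against model for the members and all lists together. For other named genes it is given where leaving that library out ended a call given here or moved a given fold by over 1.5 times.

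**Figure D1:**
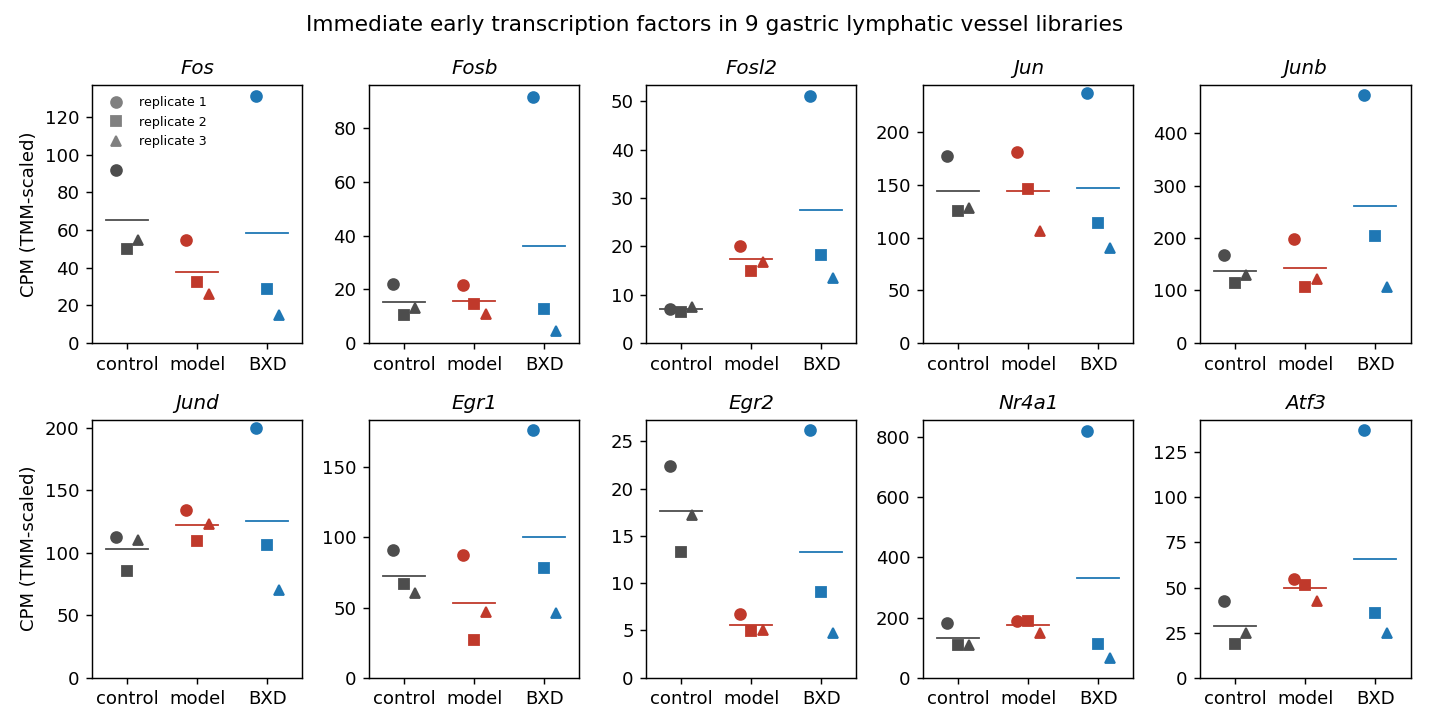
TMM-scaled CPM of each member (y axis, linear from 0) in the 3 libraries of the control, model and BXD groups (x axis), with the symbol shape giving the replicate and the bar the group mean. BXD replicate 1 is the highest point in all 10 panels, while Fosl2 is the member whose control libraries all lie below the model and BXD libraries.

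In the Fos family, the AP-1 subunits that need a partner to bind DNA, Fosl2 was called with all 9 libraries and Fos and Fosb were not, and differences between members were not tested. Fosl2, which encodes Fra-2, was at 7.03, 6.43 and 7.50 CPM in control replicates 1, 2 and 3, at 20.1, 15.0 and 16.8 CPM in the model, and at 51.2, 18.1 and 13.5 CPM in BXD. Every stressed library lay above every control library, with or without the decoction. Fosl2 rose 2.48-fold in the model against control (log2 fold change 1.31, SE 0.44, adjusted p = 0.0387, edgeR) and 3.94-fold in BXD against control (1.98, SE 0.44, adjusted p = 0.0105). The Fosl2 call in the model was near the threshold and was lost with library size as the only scaling (adjusted p = 0.0692), with upper quartile scaling (0.0513), in fits to FPKM (0.0571 to 0.0913) and without any single control or model library (0.0693 to 0.11), while its direction held. The BXD call held in all 19 alternatives, and without BXD replicate 1 the Fosl2 rise was 2.27-fold (log2 fold change 1.18, SE 0.19, adjusted p = 0.00351).

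Fos, the prototype of the family, was at 91.7, 49.9 and 54.9 CPM in control, 54.7, 32.3 and 25.8 in the model and 131, 28.5 and 15.0 in BXD. The control and model ranges of Fos overlapped narrowly in CPM, and its value of -0.80 on the log2 scale (SE 0.70) did not pass (adjusted p = 0.379). In TPM, which also scales by length and carries no composition factor, Fos lay between 24.7 and 50.8 in the model and between 63.9 and 111 in control, with no overlap. For BXD against control the value of Fos turned on BXD replicate 1. With all libraries it was -0.17 (SE 0.69, adjusted p = 0.875), and without that library Fos fell 3.01-fold (-1.59, SE 0.43, adjusted p = 0.0254).

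Fosb, a paralog of Fos that is also spliced to a shorter form, was at 21.8, 10.5 and 13.2 CPM in control, 21.5, 14.5 and 10.8 in the model and 91.8, 12.5 and 4.53 in BXD. Control and model libraries of Fosb covered nearly the same range, a difference of 0.04 on the log2 scale (SE 0.90, adjusted p = 0.975) whose sign flipped with library size alone (-0.23). In BXD the Fosb libraries included both the highest and the lowest of the 9. Against control the Fosb value was 1.26 (SE 0.89, adjusted p = 0.316) with BXD replicate 1 and -0.83 (SE 0.49, adjusted p = 0.231) without it.

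The Jun family, the partners that can bind DNA as homodimers or with Fos proteins, had close mean levels in control and model, with no member called. Jun was at 178, 126 and 128 CPM in control, 182, 146 and 106 in the model and 238, 114 and 90.4 in BXD. Jund, often the constitutive member of the family, was at 113, 85.6 and 110 CPM in control, 134, 109 and 123 in the model and 200, 106 and 70.5 in BXD. For both genes all 3 groups overlapped. The model against control values were 0.01 (SE 0.35, adjusted p = 0.991) for Jun and 0.25 (SE 0.32, adjusted p = 0.545) for Jund, and both turned negative with library size alone (-0.27 and -0.01), a scaling that lowered the median of all genes from -0.01 to -0.28.

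Junb, the Jun protein known for restraining growth, was at 169, 115 and 130 CPM in control, 198, 106 and 122 in the model and 474, 204 and 107 in BXD. BXD replicates 1 and 2 lay above every other library and BXD replicate 3 among the lowest. The BXD against control value of Junb was 0.93 (SE 0.47, adjusted p = 0.169), and it passed without BXD replicate 3 (1.30, adjusted p = 0.0395) and fell to 0.18 without BXD replicate 1 (adjusted p = 0.727). Junb in the model differed from control by 0.04 (SE 0.47, adjusted p = 0.946), a sign that flipped with library size alone (-0.22).

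Of the Egr genes, Egr2 passed the test in the model and Egr1 did not, and the difference between them was not tested. Egr2, the zinc-finger factor also called Krox-20, was at 22.4, 13.2 and 17.2 CPM in control and at 6.74, 4.93 and 5.01 CPM in the model. All 3 model libraries lay below all 3 control libraries. Egr2 fell 3.16-fold in the model (log2 fold change -1.66, SE 0.54, adjusted p = 0.0340). The direction held in every alternative, and the Egr2 call was lost without control replicate 1 or 3 or without any one model library (adjusted p = 0.0613 to 0.107). In BXD, Egr2 was at 26.2, 9.10 and 4.68 CPM, so 1 library stood above the control range and the other two below it. The BXD against control value of Egr2 was -0.40 (SE 0.51, adjusted p = 0.585), and without BXD replicate 1 Egr2 fell 2.55-fold (-1.35, SE 0.33, adjusted p = 0.0187).

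Egr1, the most widely induced gene of its family, was at 91.1, 66.7 and 60.5 CPM in control, 87.2, 26.6 and 46.8 in the model and 176, 78.5 and 46.3 in BXD. Model replicate 1 lay within the control range of Egr1 and the other 2 model libraries below it. The model against control value was -0.44 (SE 0.52, adjusted p = 0.511). The BXD against control value was 0.46 (SE 0.51, adjusted p = 0.530), and -0.22 (SE 0.45, adjusted p = 0.745) without BXD replicate 1.

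Nr4a1, the orphan receptor also called Nur77, was at 181, 108 and 107 CPM in control, 189, 188 and 149 in the model and 821, 111 and 66.0 in BXD. Its BXD libraries spanned the widest range of any member in CPM, from the lowest to the highest of the 9. Nr4a1 in the model differed from control by 0.41 (SE 0.79, adjusted p = 0.697). For BXD against control the value was 1.33 (SE 0.80, adjusted p = 0.241) with BXD replicate 1 and -0.57 (SE 0.30, adjusted p = 0.176) without it.

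Atf3 was at 42.5, 18.5 and 24.7 CPM in control, 54.9, 51.5 and 42.3 in the model and 137, 35.9 and 24.7 in BXD. The lowest model library of Atf3 lay just under the highest control library, and the other libraries of these groups did not overlap. The model against control value of Atf3 was 0.80 (SE 0.58, adjusted p = 0.295). Without BXD replicate 1, a library of neither group, it was again 0.80 but with SE 0.29 (adjusted p = 0.0552). In the authors' deposited table the same Atf3 comparison has a log2 fold change of 0.82 with q = 0.0278, and that table also lists Fosl2 at 1.33 (q = 2.95e-09), Egr2 at -1.64 (q = 1.32e-07) and Fos at -0.78 (q = 0.0591). BXD against control gave 1.21 for Atf3 (SE 0.58, adjusted p = 0.147), and 0.09 (SE 0.33, adjusted p = 0.862) without BXD replicate 1.

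Counted over the members, model against control called 1 of 10 higher and 1 of 10 lower, where 21.6% and 20.6% of all genes tested were called higher and lower. The groups of 3 did not overlap for 2 of the 10 members, against 58.3% of genes. BXD against control called 1 of 10 higher and 0 lower (16.1% and 14.3% of genes), and 1 of 10 had groups that did not overlap (48.6% of genes). None of these member shares lies above that of all genes. The median log2 fold change of the members was 0.04 in the model, beside -0.01 over all genes. In BXD against control it was 0.69 with 8 of 10 positive, and -0.36 with 3 of 10 positive without BXD replicate 1, beside -0.02 over all genes in both. The median in the model turned to -0.22 with library size alone, when that of all genes was -0.28. Both comparisons use the same control libraries.

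BXD against model, the comparison of decoction with vehicle after the same stress, called 0 of the 10 members by edgeR, by DESeq2 and by limma on FPKM. In either direction edgeR called 0.0615% of all genes, DESeq2 7.71% and limma on log2(FPKM + 1) 0.198%. At an unadjusted p under 0.05 edgeR gave 1 member, Egr2 (log2 fold change 1.26, SE 0.54, adjusted p = 0.225), and 20.9% of all genes, and 0 members had groups that did not overlap (22.4% of genes). All 10 fold changes were positive with the 9 libraries, with Fosb at 1.22 (SE 0.90, adjusted p = 0.469) and Nr4a1 at 0.92 (SE 0.80, adjusted p = 0.546). Without BXD replicate 1, 7 of the 10 were negative, again with 0 called. Nr4a1 was then at -0.99 (SE 0.30, adjusted p = 0.118), Fosb at -0.88 (SE 0.49, adjusted p = 0.308), Fos at -0.79 (SE 0.42, adjusted p = 0.281) and Atf3 at -0.71 (SE 0.33, adjusted p = 0.236). Junb, Egr1 and Egr2 remained positive, at 0.13, 0.22 and 0.31. For Fos, Fosb, Fosl2, Nr4a1 and Atf3 that was the one alternative of the 19 that turned the sign. Jun and Jund, at 0.03 and 0.04 with all libraries, also turned negative in fits to FPKM, with a replicate block and without 1 model library.

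Without BXD replicate 1 the other counts were these. Model against control again called Fosl2 higher and Egr2 lower (adjusted p = 0.00101 and 0.00337), with 23.3% and 23.0% of genes called higher and lower. The groups share 1 estimate of the spread, and the SE of every member in that comparison was smaller without BXD replicate 1. It went from 0.70 to 0.36 for Fos, 0.90 to 0.42 for Fosb, 0.79 to 0.26 for Nr4a1 and 0.58 to 0.29 for Atf3. None of these was called (adjusted p = 0.104, 0.941, 0.218 and 0.0552). BXD against control called Fosl2 higher and Fos and Egr2 lower (16.4% and 15.1% of genes), and BXD against model called 1.03% of genes and 0 members.

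**Figure D2:**
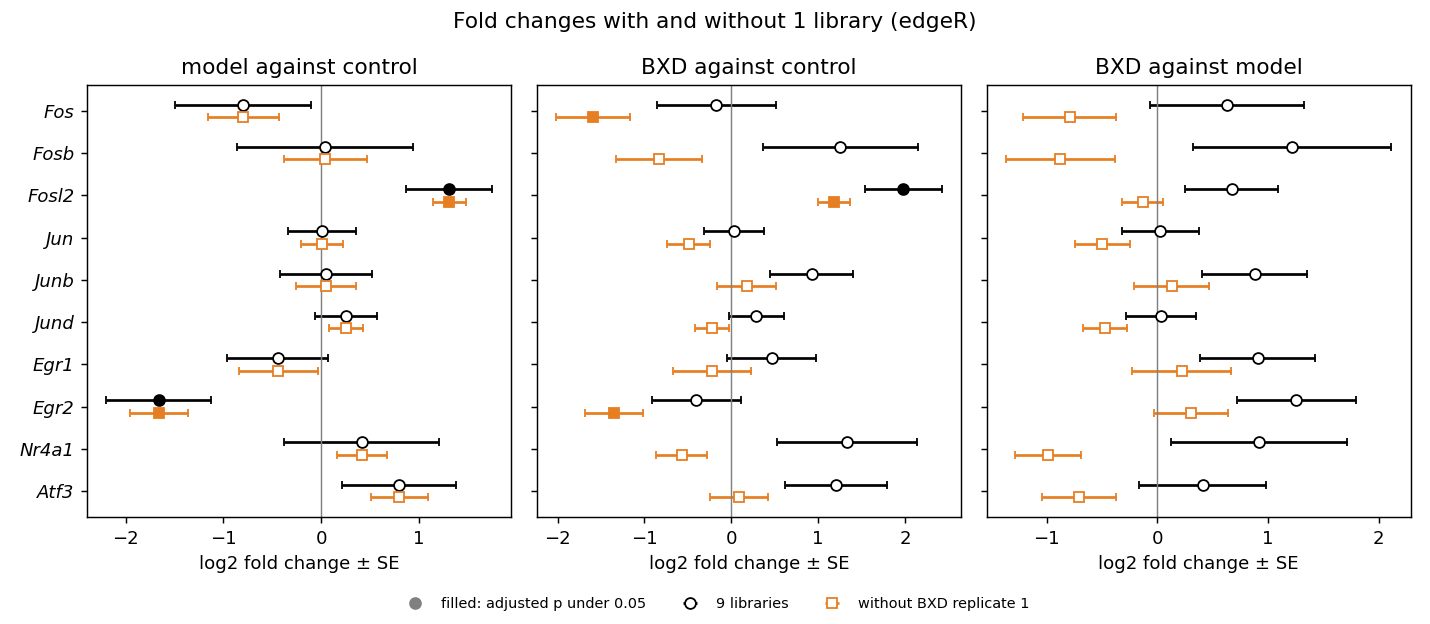
Log2 fold change with SE of each member (rows) in the 3 comparisons (panels), from all 9 libraries (circles) and without BXD replicate 1 (squares), with filled symbols for adjusted p under 0.05. Leaving out that library barely moves the model against control values, though it narrows their SEs. It carries 7 of the 10 BXD against model values from positive to negative.

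Replicate 1 was also high in the other groups. It had the highest level within each of the 3 groups for 9 of the 10 members, with Fosl2 in control as the exception, where 4.6% of all genes tested did so. This pattern was noticed after the values were seen, the labels do not tie a replicate number to a batch, rat or day, and its source was not tested.

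Marker lists also differed between these libraries. Smooth muscle markers summed to 4728, 4080 and 6336 CPM in control replicates 1, 2 and 3. Adipocyte markers summed to 7687, 8601 and 11500 CPM in BXD replicates 1, 2 and 3. BXD replicate 1 had the highest summed smooth muscle markers (8912 CPM) and striated muscle markers (5965 CPM) of the 9 libraries. BXD replicate 3, with the lowest level for 6 members, had the second highest striated muscle sum (3632 CPM), while BXD replicate 2 had 68.9 CPM. Neutrophil markers summed to 50.0 to 95.7 CPM in control, 166 to 305 in the model and 79.7 to 192 in BXD libraries. The lowest BXD sum was in replicate 1, and Mpo made up most of the sum in every library. Mpo was at 45.2, 85.0 and 160 CPM in BXD replicates 1, 2 and 3, and Cxcr2 at 5.18, 9.02 and 10.1. Csf3r (5.59, 0.706 and 1.36) and Il1r2 (10.6, 8.71 and 6.72) were instead highest in replicate 1. S100a8 and S100a9 were lowest in replicate 2. Of the 6 markers, 4 rose in each stressed group against control. All 8 adipocyte markers rose and 5 of 8 smooth muscle markers fell in the model against control, beside the changes of Fosl2 and Egr2 there. The part of these tissues in the member levels was not tested.

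**Figure D3:**
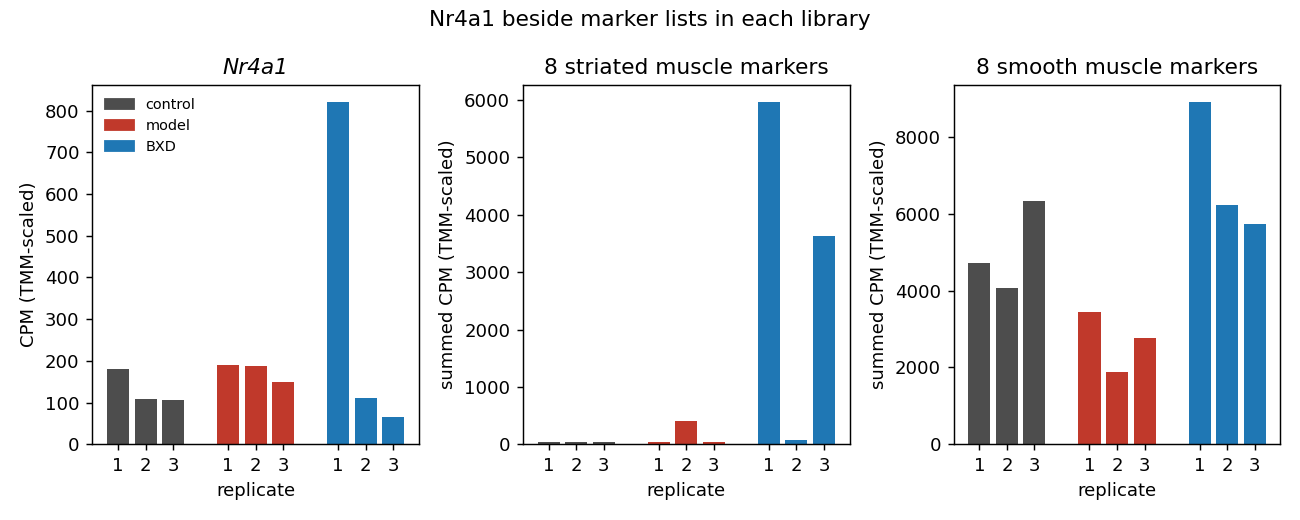
TMM-scaled CPM of Nr4a1 and the summed CPM of 8 striated and 8 smooth muscle markers (y axes, linear from 0) in each library (bars, coloured by group, numbered by replicate). BXD replicates 1 and 3 both carry striated muscle RNA (5965 and 3632 CPM), while Nr4a1 is at 821 CPM in the one and 66.0 CPM in the other.

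Levels can be compared between genes in TPM, which scales by length. In control the order of mean TPM was Junb (147 ± 26.2, SD, n = 3), Jund (118 ± 13.6), Nr4a1 (94.6 ± 28.8), Egr1 (94.1 ± 19.7), Jun (82.3 ± 15.1), Fos (80.4 ± 26.4), Atf3 (28.4 ± 11.7), Fosl2 (16.3 ± 0.869), Egr2 (9.94 ± 2.28) and Fosb (8.18 ± 2.98). Neighbours in that order had overlapping libraries from Jund down to Fos and between Egr2 and Fosb, and did not overlap elsewhere. In the model, Junb (113 ± 42.4), Jund (104 ± 15.9) and Nr4a1 (92.4 ± 9.78) again led, while Fosl2 (29.9 ± 5.71) overlapped Fos (34.3 ± 14.4) and Egr2 (2.30 ± 0.420) was the lowest, below every library of Fosb (6.21 ± 2.24). In BXD every pair of neighbours overlapped, with SDs as large as 248 TPM around a mean of 195 for Nr4a1.

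Genes with the most similar profiles were found by the root mean square difference of mean-centred log2 CPM over the 9 libraries, among 14034 genes, as a description in which all points share the same libraries. Nearest to Fos outside the members were Hmgb2l1 (0.34), Klhl29 (0.40) and Egr3 (0.43), against a median distance of 0.97 to all genes. Nearest to Egr1 was the member Junb (0.33), followed by Fam129a (0.34), Egr3 (0.37) and Gdf15 (0.37), against a median of 0.80. Nearest to Atf3 were Btg2 (0.20), Chrna1 (0.24) and Cebpb (0.27), with the member Nr4a1 at 0.37 and a median of 0.86. Egr3 was at 18.9, 8.44 and 10.6 CPM in control, 10.8, 5.73 and 6.30 in the model and 42.7, 9.89 and 5.89 in BXD, and Btg2 at 274, 149 and 155, at 347, 512 and 329, and at 1034, 261 and 189 CPM. Both were highest in BXD replicate 1, which follows from picking them for likeness to members and is no separate support. Hmgb2l1, the nearest to Fos, was highest in control replicate 1 (18.7 CPM, and 17.1 in BXD replicate 1). Fosl2 stood far from Fos by this measure, at 1.15.

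The pathway around the members was read through 5 lists with 103 genes, of which 100 were tested. Their counts stand beside 21.6% of all genes called higher and 20.6% lower in the model against control, and 16.1% and 14.3% in BXD against control. Other immediate early regulators, 22 of 23 tested, were called higher for 7 (31.8%) and lower for 1 (4.55%) in the model against control, with a median log2 fold change of 0.75 beside -0.01 for all genes. With library size alone that median was 0.49 beside -0.28, and without BXD replicate 1 the calls were 12 higher and 2 lower, beside 23.3% and 23.0% of genes. Nr4a3, an orphan receptor related to Nr4a1, was at 20.4, 9.22 and 9.95 CPM in control, 68.5, 98.6 and 49.6 in the model and 139, 49.8 and 48.5 in BXD. The control libraries of Nr4a3 lay below all stressed libraries, and it rose 5.47-fold in the model (log2 fold change 2.45, SE 0.50, adjusted p = 0.00551) and 6.00-fold in BXD against control (2.58, SE 0.50, adjusted p = 0.00616). The BXD value of Nr4a3 was 1.90 without BXD replicate 1 (adjusted p = 0.00824). Maff, a small Maf protein, rose 2.33-fold and 2.79-fold (adjusted p = 0.0103 and 0.00651), and Btg1, a growth-restraining gene, 1.86-fold in both (0.00121 and 0.00167). Npas4, a calcium-induced factor best known in neurons, fell 6.52-fold in the model (adjusted p = 0.00627) from a level of only 1.14 to 2.52 CPM in control. In BXD against control Npas4 fell 3.4-fold (adjusted p = 0.031, and 0.0854 without BXD replicate 1).

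In BXD against control the same list was called higher for 9 (40.9%) and lower for 1 (4.55%), with a median of 0.96. The list without BXD replicate 1 was called higher for 5 (22.7%, beside 16.4% of all genes) and lower for 0, with a median of 0.46. Rgs2, which shortens Gq-coupled receptor signalling, had a course unlike the members. It was at 34.9, 35.0 and 37.3 CPM in control, 32.8, 27.1 and 32.8 in the model and 65.0, 95.1 and 134 in BXD. All BXD libraries of Rgs2 lay above all others, and BXD replicate 1 was the lowest of the 3. Rgs2 rose 2.75-fold in BXD against control (adjusted p = 0.00230). Against the model it was 3.17-fold higher at an adjusted p of 0.0558, and it passed without BXD replicate 1 (log2 fold change 1.89, adjusted p = 0.00964).

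AP-1 partners and Egr corepressors, all 13 tested, were called higher for 2 (15.4%) and lower for 4 (30.8%) both in the model and in BXD against control. Their medians of -0.01 and 0.12 were -0.28 and -0.09 with library size alone, beside -0.28 and -0.23 over all genes. Without BXD replicate 1, BXD against control called 3 higher and 3 lower (23.1% each), with a median of 0.08, and the model 4 higher and 4 lower. Atf7, a Jun-binding factor, fell from 114 to 120 CPM in control to 52.0 to 58.4 in the model (2.11-fold, adjusted p = 0.000402) and 1.49-fold in BXD (adjusted p = 0.00521). Nab2, a corepressor of Egr proteins, fell 2.10-fold in the model (adjusted p = 0.00245), beside the fall of Egr2, and 1.46-fold in BXD (adjusted p = 0.0462, and 0.0927 without BXD replicate 1). Ddit3, the stress factor CHOP, fell 1.85-fold and 1.64-fold (adjusted p = 0.00339 and 0.0113), whereas Atf2 rose 2.22-fold in the model (adjusted p = 0.00697). Atf4, the effector of the integrated stress response, rose 1.77-fold in the model and 1.81-fold in BXD against control (adjusted p = 0.00831 and 0.00957). Mafk, another small Maf protein, was 1.62-fold higher in the model without a call (adjusted p = 0.0588) and rose 2.18-fold in BXD against control (adjusted p = 0.0133).

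Upstream kinases and factors, all 27 tested, were called higher for 8 (29.6%) and lower for 3 (11.1%) in each comparison with control, and for the same numbers in BXD without BXD replicate 1 (median 0.15). Their medians of 0.21 in the model and 0.12 in BXD turned to -0.07 and -0.09 with library size alone. The medians of all genes were then -0.28 and -0.23. That scaling called 4 higher and 6 lower in the model, beside 11.1% and 33.5% of all genes, and 4 and 5 in BXD, beside 9.36% and 24.6%. Map2k3, a kinase that activates p38, was at 64.9, 49.0 and 55.7 CPM in control, 188, 151 and 161 in the model and 263, 205 and 159 in BXD. It rose 2.95-fold and 3.69-fold (adjusted p = 0.000692 and 0.000685), with no overlap between control and stressed libraries. The CRE-binding factors moved apart: Creb1 fell 2.10-fold and 1.75-fold (adjusted p = 0.00118 and 0.00486). Crem, whose products include repressors of CRE sites, rose 2.63-fold and 2.50-fold (0.00089 and 0.00154), and Atf1 1.47-fold and 1.44-fold (0.00121 and 0.00213). Rps6ka3, a kinase that phosphorylates CREB, rose 1.24-fold in BXD against control (adjusted p = 0.0364).

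MAPK phosphatases and sprouty proteins, the brakes on the same kinases, were called higher for 6 (40.0%) and lower for 1 (6.67%) of 15 in the model (median 0.53), and higher for 6 and lower for 0 in BXD against control (median 0.46). Both medians were 0.25 with library size alone, beside -0.28 and -0.23 over all genes. BXD against control called 5 higher and 0 lower without BXD replicate 1, with a median of 0.24. Dusp10, which acts on p38 and JNK, rose from 10.3 to 14.1 CPM in control to 37.4 to 61.1 in the model (3.99-fold, adjusted p = 0.000423) and 2.39-fold in BXD (adjusted p = 0.00296). Dusp4 rose 4.43-fold in the model and 2.77-fold in BXD against control (adjusted p = 0.00234 and 0.0148). Dusp2, a nuclear phosphatase, rose 3.97-fold and 7.28-fold (adjusted p = 0.00883 and 0.00283). Dusp16 rose 1.92-fold in the model (adjusted p = 0.00530) and 1.56-fold in BXD against control (adjusted p = 0.0324, and 0.0868 without BXD replicate 1). Spred1, an inhibitor of Ras to Raf signalling, rose 1.35-fold and 1.55-fold (adjusted p = 0.0368 and 0.0113).

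Genes known to respond to AP-1 or Egr proteins, 23 of 25 tested, were called higher for 4 (17.4%) and lower for 2 (8.70%) in the model (median 0.55, and 0.28 with library size alone). They were called higher for 11 (47.8%) and lower for 1 (4.35%) in BXD against control (median 1.04). Without BXD replicate 1 the calls were 9 higher (39.1%) and 4 lower (17.4%) in BXD against control, with a median of 0.58, and 6 higher and 4 lower in the model. Sphk1, which makes sphingosine 1-phosphate, was at 3.05, 2.27 and 2.03 CPM in control, 35.8, 29.6 and 27.0 in the model and 135, 42.8 and 21.7 in BXD. Its control libraries lay far below all others, and it rose 12.5-fold in the model (adjusted p = 0.00303) and 27.0-fold in BXD (adjusted p = 0.00162). Gadd45b and Gadd45g, growth-arrest genes, rose by 1.56 and 1.14 on the log2 scale in the model (adjusted p = 0.0124 and 0.0294) and by 2.32 and 1.62 in BXD (0.00346 and 0.0101), and Plaur, the urokinase receptor, rose 2.15-fold and 3.14-fold (0.0142 and 0.00375). Ptgs2, the inducible cyclooxygenase, fell 4.63-fold in the model and 3.06-fold in BXD (adjusted p = 0.00354 and 0.0154), and Zfp36l1, which destabilises AU-rich transcripts, 1.54-fold in the model (adjusted p = 0.00487). With BXD replicate 1 left out, Sphk1 was at a log2 fold change of 3.72 in place of 4.76 in BXD against control, Gadd45b at 1.73 in place of 2.32, and Timp1, an inhibitor of matrix proteases, was no longer called (0.85, adjusted p = 0.0331, to 0.59, adjusted p = 0.0932).

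Between BXD and model, 0 of the 100 pathway genes were called by edgeR. At an unadjusted p under 0.05 there were 18, a share below the 20.9% of all genes, and DESeq2 called 7, a share below its 7.71% of all genes. The median log2 fold change of the 100 genes was 0.24 with 71 positive, beside -0.006 over all genes. Without BXD replicate 1 that median was -0.017 with 47 positive, beside -0.025 over all genes. Then 1 pathway gene, Rgs2, was called, beside 1.03% of all genes. With all 9 libraries, the lowest p in each list belonged to Rgs2 (above), Atf7 (log2 fold change 0.50, adjusted p = 0.0959), Rps6ka3 (0.25, adjusted p = 0.187), Dusp10 (-0.74, adjusted p = 0.121) and Timp1 (0.97, adjusted p = 0.119).

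BXD replicate 1 had the highest level of the 9 libraries for 16 of the 22 other immediate early regulators, 18 of the 23 responsive genes and 10 of the 15 brakes, but for 5 of the 27 upstream genes and 3 of the 13 partners, where 12.8% of all genes tested did. Its median ratio to the mean of BXD replicates 2 and 3 was 2.28, 2.54 and 1.73 in the former lists and 0.974 and 0.988 in the latter, close to the 0.999 of all genes.

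**Figure D4:**
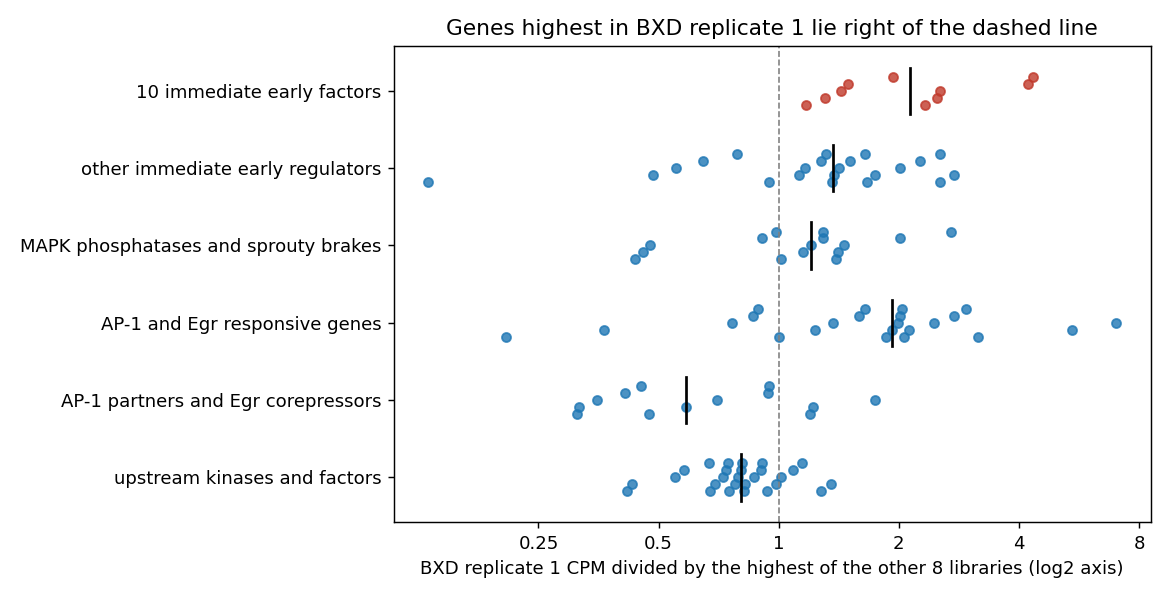
CPM in BXD replicate 1 divided by the highest of the other 8 libraries (x axis, log2 scale) for each tested gene (points) of the members and the 5 pathway lists (rows), with list medians as vertical lines. All 10 members lie right of the dashed line at 1, up to 4.33 for Nr4a1, while most upstream kinases and AP-1 partners lie left of it.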

How the data were processed

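The 9 poly(A) RNA-seq libraries (Illumina, per the labels' protocols) were assigned to 3 groups by title. The Rnor_6.0 build and the aligners HISAT2 2.2.4 and Bowtie2 2.2.5 are named in the submitters' processing notes. The sources used here name neither the counting tool nor strandedness, so reads of a gene and of an overlapping or antisense one cannot be separated. Per the file headers, the authors deposited estimated counts per gene (88.8% whole within 1e-09), FPKM and TPM. The authors' deposited table of comparisons holds log2 fold changes with p-values and q-values. A further 45 columns of per-sample values were not used, and the omeprazole group was not analysed here.

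Estimated counts were rounded, filtered with filterByExpr, scaled by TMM (factors 0.873 to 1.15) and fitted with edgeR 4.0.16 (quasi-likelihood, robust, R 4.3.3) over the 9 libraries with group as the only term, with 6 residual degrees of freedom and a biological coefficient of variation of 23.4%. Called means a Benjamini-Hochberg adjusted p under 0.05 over all genes tested. The script was tested on simulated data. Alternatives were other scalings, DESeq2 1.42.0, limma 3.58.1 on log2 of FPKM plus 1 or 0.1, no filter, fits of only the groups compared, a replicate block and each library left out. Same-numbered libraries of different groups had deviations correlated between -0.431 and 0.0859 (9 pairs), and differently numbered ones between -0.184 and 0.277 (18 pairs). Numbers were therefore not taken to pair libraries. These correlations run over all genes tested and do not describe a small set such as the members.

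The members, the 5 pathway lists and the 7 marker lists were chosen with earlier results of these data known. Named genes were all members, up to 4 called genes with the smallest p per pathway list and comparison (the smallest p where 0 were called), and the 3 nearest profiles outside the members to Fos, Egr1 and Atf3 among genes averaging 1 CPM or more (log2 CPM with a prior count of 2).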

Additional observations from a re-analysis of the deposited data

How the results depend on the processing

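Over 30 member values and 19 alternatives each, 481 kept direction and side of the threshold, 16 lost and 3 gained the call, and 70 changed sign. With library size alone, model against control gave Fosb -0.23, Jund -0.014, Jun -0.27 and Junb -0.22, and BXD against control Jun -0.19. Upper quartile scaling gave Junb -0.082, Jun -0.13 and Fosb -0.089 in the model and Jun -0.092 in BXD against control. Fits to log2(FPKM + 0.1) gave Fosb -0.21, Jun -0.28, Junb -0.26 and Jund -0.0092 in the model, Jun -0.28 and Jund -0.044 in BXD against control, and Jun -0.0058 and Jund -0.035 in BXD against model. With log2(FPKM + 1), filtered or not, they were -0.18, -0.27, -0.25 and -0.0091, then -0.28 and -0.042, then -0.0043 and -0.033. Jun in the model was -0.0033 without a filter and -0.013 when only these groups were fitted. The replicate block gave Jun -0.014, -0.066 and -0.053 in the model, BXD against control and BXD against model, Junb -0.0068 in the model and Jund -0.048 in BXD against model; its counts of members called did not differ, and the pairing has no support in the labels. Leaving out 1 library at a time gave, in the model against control, Fosb -0.26 to 0.38, Jun -0.19 to 0.19 and Junb -0.27 to 0.22. In BXD against control it gave Fos -1.59 to 0.29, Fosb -0.83 to 1.78, Jun -0.49 to 0.29, Jund -0.22 to 0.57, Egr1 -0.22 to 0.81, Egr2 -1.35 to 0.0050 and Nr4a1 -0.57 to 1.82. In BXD against model it gave Fos -0.79 to 1.09, Fosb -0.88 to 1.74, Fosl2 -0.13 to 1.00, Jun -0.50 to 0.28, Jund -0.47 to 0.32, Nr4a1 -0.99 to 1.41 and Atf3 -0.71 to 0.80. The 2 members called in the model became 1 with library size alone, upper quartile scaling and each FPKM fit, and 0 to 2 with a library left out; the 1 in BXD against control became 1 to 3. Pathway genes called with a library left out numbered 29 to 54 (38 with all) in the model, 24 to 46 (45) in BXD against control and 0 to 1 (0) in BXD against model, where DESeq2 gave 7 and the DESeq2 size factors, the filtered FPKM fits and no filter 1 each. All genes called in BXD against control numbered 2728 to 4775 with a library left out (4444 with all). In BXD against model the 9 became 1129 with DESeq2, 25 and 29 with FPKM plus 0.1 and 1, 2 with FPKM unfiltered, 16 without a filter, 1 with only these groups, 1 with the replicate block and 1 to 154 with a library left out. Calls higher made up 51.2% of calls in the model and 24.8% with library size alone. Beyond the scaling, the causes were not tested. At 55 to 60 counts the lowest Egr2 and Fosb values carry the most counting error.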
